A study of Mus musculus with 10 samples.

Results

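The genes described here encode the WNT ligands and the proteins that secrete, receive, dampen and transmit their signal. They were taken by rule as the protein-coding genes named Wnt, Fzd, Sfrp, Dkk, Rspo or Axin with a number, plus Lrp5, Lrp6, Lgr4, Lgr5, Ctnnb1, Tcf7, Tcf7l1, Tcf7l2, Lef1, Wif1, Frzb and Wls, which gave 55 of the 30719 genes in the table. RNA sequencing had been run on whole testes of mice at postnatal day 10, with 5 wild-type (WT) mice and 5 FXR-/- mice that lack FXRα, the bile acid receptor encoded by Nr1h4. Each library came from 1 mouse, all were sequenced on 1 flowcell, and both genotypes carried 129sv and C57Bl ancestry. It is not stated which stretch of Nr1h4 was removed, in which cells the deletion acts or whether the mice were littermates, so genotype cannot be told apart from any difference in strain mix or litter between the groups. The question put to the data was how these genes stand in a testis without FXRα.

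WNT proteins are secreted, lipid-carrying ligands that bind frizzled receptors. In the canonical branch a frizzled and an LRP co-receptor stop the AXIN-based destruction complex from degrading β-catenin, which then enters the nucleus and acts with TCF/LEF factors, whereas other branches act through cell polarity and calcium. In the gonad, WNT4 and RSPO1 are best known as signals of the ovarian pathway that is held down in the fetal testis, and β-catenin also sits in cell junctions.

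The libraries held 32330029 to 39655170 counts, of which the 55 genes took 0.246% in wild type and 0.241% in knockout on average. Nr1h4 itself had 13 to 26 counts in wild type and 8 to 13 in knockout (edgeR adjusted p = 0.0347), too few to check the labels closely. None of 75 marker genes of testicular and adjoining cell types was at 0 in any library, the defining Sertoli and germ cell markers included. Between genotypes, summed Sertoli markers were lower in knockout (3585 to 4368 CPM, which are counts scaled to a common library size, against 2389 to 3354 CPM) and summed duct epithelium markers higher (82.7 to 103 CPM and 132 to 192 CPM). Summed adipocyte markers ran from 21.4 to 126 CPM in wild type and from 70.3 to 918 CPM in knockout, highest in knockout libraries 9 and 10. In RNA from whole tissue, fewer cells of a type and less RNA per cell cannot be told apart.

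Of the 55 genes, 50 had enough counts for the test and 5 did not (Wnt1, Wnt8a, Wnt16, Dkk1 and Dkk4, each with 0 to 11 counts per library). With an edgeR adjusted p under 0.05 as the call, 4 rose in knockout (Wnt9b, Rspo3, Wnt7b and Dkk3), 3 fell (Wnt2b, Fzd10 and Fzd5) and 43 did not pass. That is 14% of the tested members, beside 13.9% of all 18559 tested genes, so by edgeR the share of changed genes was that of the transcriptome at large. DESeq2, an alternative test, called 13 members, beside 17% of all genes it tested. In direction, 8% of members rose and 6% fell by edgeR, against 6.17% and 7.71% of all tested genes. Of all called genes 44.5% were higher in knockout, a share that was 61.5% when libraries were scaled by their totals alone. The median log2 fold change of the tested members was 0.03 against 0.01 for all genes, and the median size of a change was 0.19 against 0.13. The values of the 2 genotypes did not overlap in 7 members (14%, against 11.6% of all tested genes, with 4 higher and 3 lower in knockout against 5.12% and 6.44%), which were 6 of the changed ones and Wnt3. At least 1.5-fold changes were called in 5 members (10%), against 3.87% of all tested genes.

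Of the 7 changed members, 4 have a window in the RefSeq promoter set used here (GRCm38.p6, the build that mm10 names), and all 4 are shown. They belong to the 3 genes that fell and to the one with the largest rise. Each runs from 250 bases before to 50 bases after a RefSeq start, 5′ to 3′ on the gene's strand. Capitals mark every match, on either strand, to the GC box GGGCGG and the CCAAT box CCAAT.
Wnt2b, chr3:104961660-104961959, minus strand: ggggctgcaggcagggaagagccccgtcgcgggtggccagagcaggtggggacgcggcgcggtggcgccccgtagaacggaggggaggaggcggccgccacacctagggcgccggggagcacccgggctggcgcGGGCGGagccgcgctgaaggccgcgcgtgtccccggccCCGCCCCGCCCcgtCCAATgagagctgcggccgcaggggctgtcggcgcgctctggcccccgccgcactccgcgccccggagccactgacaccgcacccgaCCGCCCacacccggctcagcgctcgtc
Fzd5, chr1:64737701-64738000, minus strand: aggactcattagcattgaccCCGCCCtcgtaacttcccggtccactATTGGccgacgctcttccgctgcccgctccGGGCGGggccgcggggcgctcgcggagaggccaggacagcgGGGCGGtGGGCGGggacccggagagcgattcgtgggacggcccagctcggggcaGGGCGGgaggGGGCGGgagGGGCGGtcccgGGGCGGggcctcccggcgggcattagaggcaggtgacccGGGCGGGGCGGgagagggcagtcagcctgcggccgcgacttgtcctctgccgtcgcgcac
Fzd10, chr5:128600856-128601155, plus strand: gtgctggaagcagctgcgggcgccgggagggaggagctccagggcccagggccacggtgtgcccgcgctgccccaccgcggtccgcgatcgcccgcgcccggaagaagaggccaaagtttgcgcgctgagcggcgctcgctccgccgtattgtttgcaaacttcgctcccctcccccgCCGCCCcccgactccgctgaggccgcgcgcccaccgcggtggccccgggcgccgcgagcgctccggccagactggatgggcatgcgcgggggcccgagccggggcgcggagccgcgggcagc
Wnt9b, chr11:103749772-103750071, minus strand: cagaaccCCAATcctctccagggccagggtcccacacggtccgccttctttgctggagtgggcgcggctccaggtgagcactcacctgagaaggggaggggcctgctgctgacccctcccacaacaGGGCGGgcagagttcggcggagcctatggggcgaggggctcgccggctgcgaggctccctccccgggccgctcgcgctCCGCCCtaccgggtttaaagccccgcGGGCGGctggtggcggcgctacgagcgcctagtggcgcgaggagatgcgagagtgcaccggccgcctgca
All 4 windows were rich in G and C (79.7% in Wnt2b, 75.7% in Fzd5, 77.7% in Fzd10 and 71.7% in Wnt9b, against a median of 52.7% over 32851 RefSeq promoter windows). The Fzd5 window held 10 matches to the GC box, some of them overlapping, the Wnt2b window 4, the Wnt9b window 3 and the Fzd10 window 1. At least 1 GC box was in 35.7% of all windows, but in 35 of the 46 windows of members, so it was not particular to the changed ones. The G and C content of the other member windows was not computed. A CCAAT box was found once each in Wnt2b, Fzd5 and Wnt9b, in 14 of the 46 windows of members and in 37.4% of all windows. The other motifs searched, on both strands, were CTTTGAT and CTTTGAA (forms of the TCF/LEF core, in 3.73% and 5.14% of all windows), the nuclear receptor half-site AGGTCA (16.3%), and the inverted repeat of that half-site with a single spacer base, the element bound by FXR (3 windows, 0.00913%). None of these letters was in the 4 windows, which says nothing about binding elsewhere. The RefSeq start lies 212 bases inside the GENCODE gene in Wnt2b and 262 bases inside it in Fzd10, so other start sites are not covered. Rspo3, Wnt7b and Dkk3 had no window in the promoter set and are not shown.

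The levels of the members spanned more than the change of any of them. Dividing CPM by the kilobases of annotated exon (CPM per kb), which allows genes to be set beside each other, put Ctnnb1, which encodes β-catenin, first at 190.3 CPM per kb in wild type. It was followed by the ligand gene Wnt6 (56.6 CPM per kb), the transcription factor gene Tcf7 (40.7), the scaffold gene Axin1 (39.1) and the antagonist gene Sfrp1 (25.6). At the other end, Wnt1 and Dkk4 had at most 2 counts in any library. The plot of levels per kilobase gives every library.

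**Figure D1:**
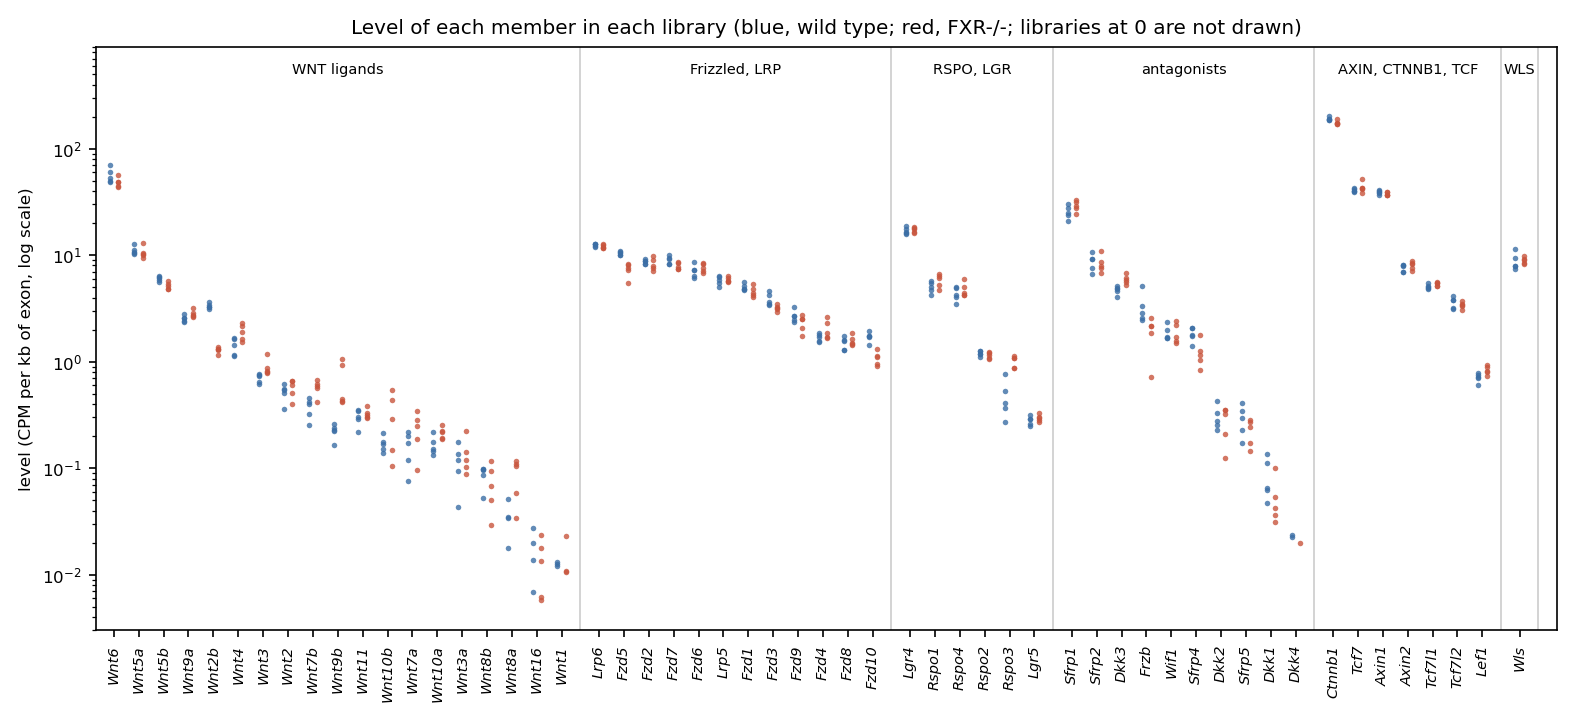
Level of each of the 55 members in each library, in CPM per kb of exon on a log axis, grouped by role and ordered by mean level; blue points are the 5 wild-type and red points the 5 knockout libraries. Ligands span the widest range, from Wnt6 at 56.6 CPM per kb in wild type to Wnt1, and the genotypes part visibly only in single genes such as Wnt2b.

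Among the ligands, Wnt2b fell, Wnt9b and Wnt7b rose, 13 of 16 tested did not pass and 3 of 19 were too low to test. The median log2 fold change of the tested ligands was 0.20, with 11 fitted above 0 and 5 below. The summed ligand level was 265 CPM in wild type against 240.1 CPM in knockout, most of it from Wnt6 and Wnt5a. The plot of changes by role shows the 16 ligands as the most spread role.

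**Figure D2:**
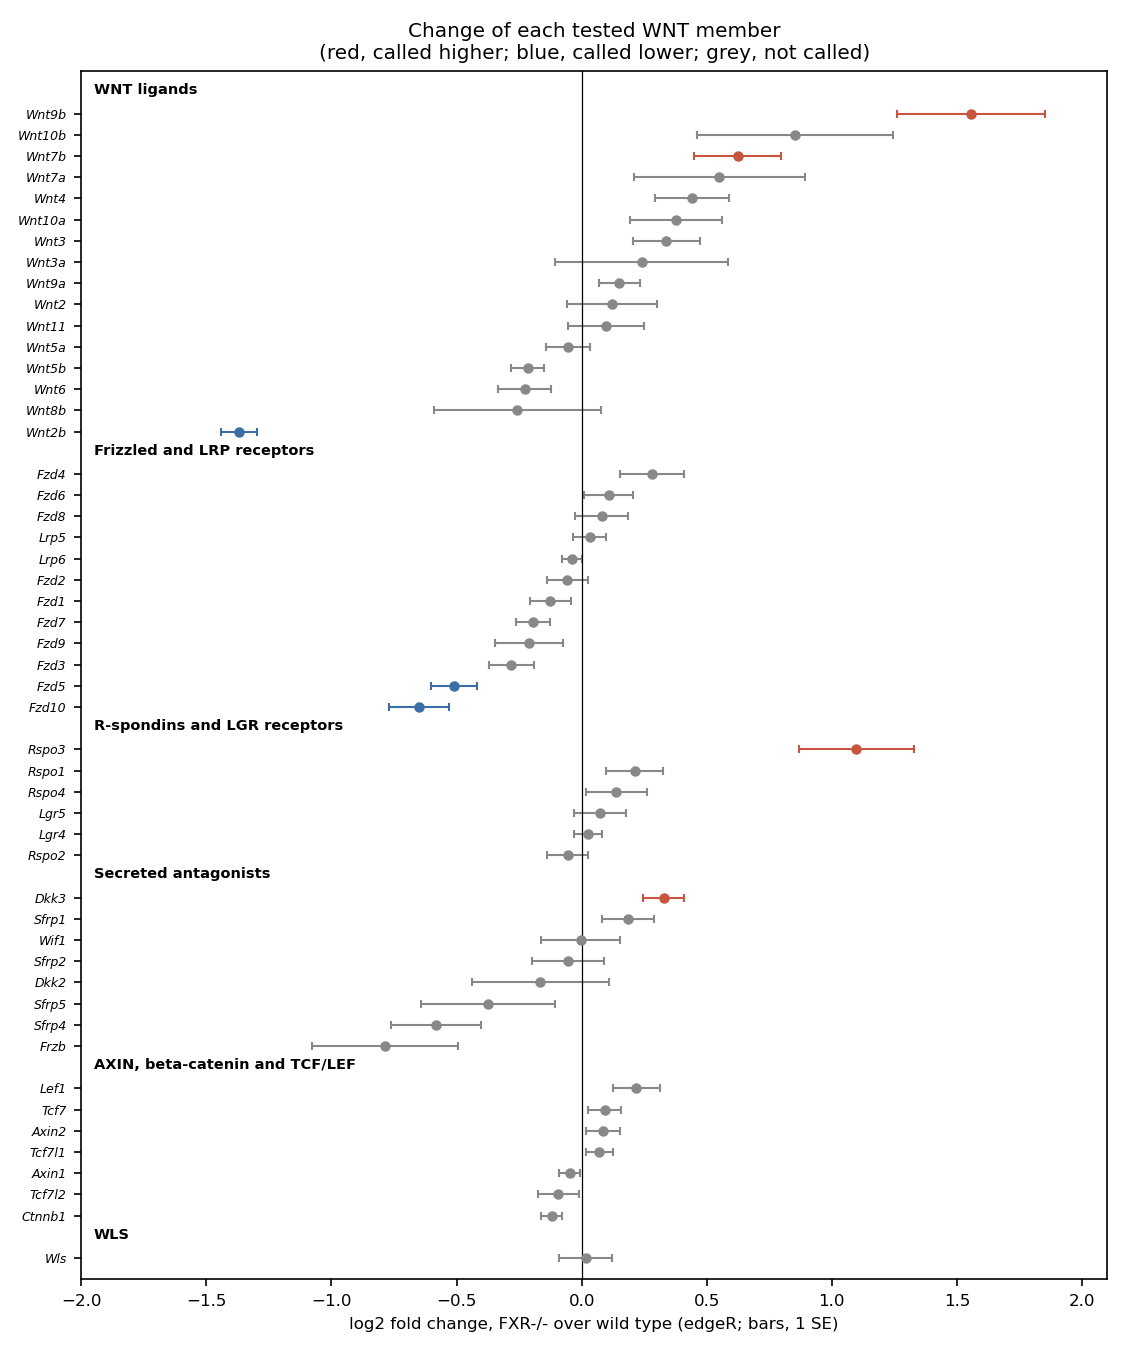
Log2 fold change (knockout over wild type, edgeR) of the 50 tested members by role, with bars of 1 standard error; red marks called higher, blue called lower and grey not called. Wnt2b (-1.37) and Wnt9b (1.56) lie farthest from 0, and the AXIN, β-catenin and TCF/LEF genes all lie between -0.12 and 0.22.

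Wnt2b encodes a ligand of the canonical branch. Its gene (ENSMUSG00000027840) lies on GRCm38 chromosome 3 from 104945272 to 104961921 on the minus strand. Wild-type libraries 3, 4, 5, 6 and 9 stood at 14.4, 15.2, 13.8, 13.7 and 13.2 CPM, and knockout libraries 8 to 12 at 4.86, 5.44, 5.80, 5.52 and 5.52 CPM. Every knockout library lay below every wild-type library by a wide margin, and the spread within each genotype was small. The mean fell from 14.05 ± 0.787 to 5.43 ± 0.344 CPM (SD, n = 5 each), a 2.59-fold fall (log2 fold change -1.37, SE 0.0730, edgeR adjusted p = 2.96e-07). Leaving out any single library gave log2 fold changes from -1.40 to -1.33. Per kilobase, Wnt2b went from 3.34 to 1.29 CPM per kb, which placed it above Wnt9a (2.54 CPM per kb) in wild type and below Wnt4 (1.90 CPM per kb) in knockout.

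The place of Wnt2b was looked at because chromosome 3 held more changed genes than most. Of its 841 tested genes, 19.6% were called and 4.4% were called with at least a 2-fold change, against 13.9% and 1.95% of all tested genes. Chromosome 17 was alike (20.3% and 3.76%). Of the 5 members on chromosome 3 (Wnt2b, Dkk2, Lef1, Sfrp2 and Wls), Wnt2b alone was called. Of 20 tested genes within 1 Mb of Wnt2b, 2 fell, 3 rose and 15 did not pass. The nearest of the called ones, Capza1, which encodes a capping protein of actin filaments, starts at -97.4 kb from the Wnt2b start and fell from 65.5 ± 1.22 to 44.7 ± 1.77 CPM (SD, n = 5 each; log2 fold change -0.55, SE 0.0387, edgeR adjusted p = 3.77e-06). Next to it, Mov10, which encodes an RNA helicase, fell slightly (log2 fold change -0.20, edgeR adjusted p = 0.0474), while St7l and Cttnbp2nl, which start at -97.9 and 91.2 kb, did not pass (-0.12 and -0.02). These distances are in genome coordinates, so negative ones lie downstream of the start of Wnt2b, a minus-strand gene. Phtf1os, Ddx20 and Wdr77, farther out, rose by 0.16 to 0.45 on the log2 scale. The share of tested genes called within 1 Mb was 25% at Wnt2b. At the other called members it ran from 5.41% (2 of 37, Wnt9b) to 33.3% (2 of 6, Dkk3), with 23.1% (3 of 13) at Fzd10.

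**Figure D3:**
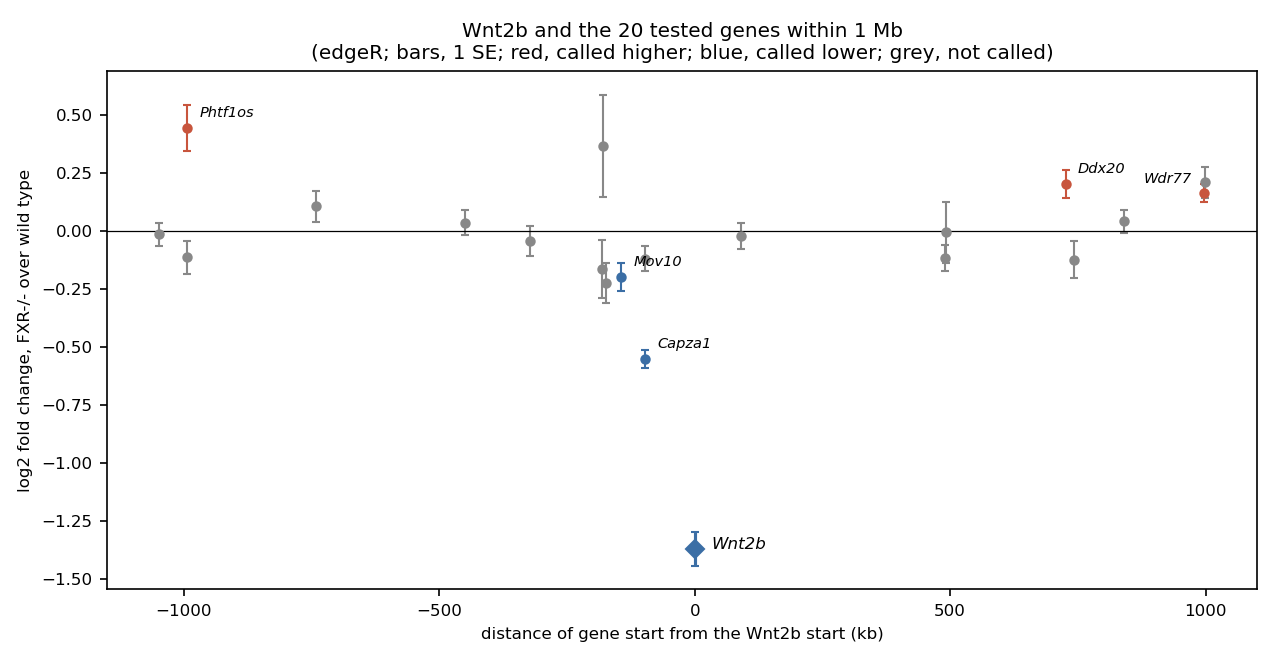
Log2 fold change (edgeR, bars of 1 standard error) of Wnt2b and the 20 tested genes within 1 Mb, against the distance of their start from that of Wnt2b in kb; red marks called higher, blue called lower and grey not called. Wnt2b lies at -1.37 and Capza1, at -97.4 kb, at -0.55, while St7l and Cttnbp2nl at similar distances lie near 0. Distances are in genome coordinates, so negative ones lie downstream of the start of Wnt2b, a minus-strand gene.

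Wnt9b encodes a ligand known from the Wolffian duct and kidney tubules. The gene (ENSMUSG00000018486) lies on chromosome 11 from 103727364 to 103749821 on the minus strand. Wild-type libraries 3, 4, 5, 6 and 9 stood at 1.08, 1.04, 1.00, 1.17 and 0.753 CPM, and knockout libraries 8 to 12 at 1.95, 2.01, 1.90, 4.82 and 4.16 CPM. The genotypes did not overlap, and knockout libraries 11 and 12 stood above the other 3 knockout libraries. The mean rose from 1.01 ± 0.155 to 2.97 ± 1.41 CPM (SD, n = 5 each), a fitted 2.94-fold rise (log2 fold change 1.56, SE 0.295, edgeR adjusted p = 0.00631) on 25 to 39 counts per wild-type library and 66 to 185 per knockout library.

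Wnt7b (ENSMUSG00000022382, chromosome 15, 85535437 to 85582473, minus strand), a ligand gene expressed in many epithelia, rose as well. An antisense gene, AU022754, overlaps 6.6% of its exons. Wild-type libraries 3, 4, 5, 6 and 9 stood at 1.23, 2.04, 1.97, 2.21 and 1.60 CPM, and knockout libraries 8 to 12 at 2.89, 3.26, 2.05, 2.76 and 3.03 CPM. Knockout library 10 fell among the wild-type values and the other 4 lay above them. The mean went from 1.81 ± 0.394 to 2.80 ± 0.458 CPM (SD, n = 5 each; log2 fold change 0.62, SE 0.173, edgeR adjusted p = 0.0342). The call was lost when any 1 of 8 libraries was left out (wild-type 3, 4, 5 and 9, knockout 8, 9, 11 and 12), with log2 fold changes from 0.51 to 0.67 and edgeR adjusted p-values up to 0.0760.

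Duct epithelium markers also differed, with 8 of 10 called higher and 2 not called, Pax2 and Cdh1. Their sum was 132 CPM in knockout library 9, 138 in 8, 148 in 10, 154 in 12 and 192 in 11. Libraries 11 and 12, the highest in Wnt9b, were thus also the highest in this sum. About 48% of that sum came from Epcam, and without it the ranges were 36.4 to 50.8 CPM in wild type against 66.7 to 105.5 CPM in knockout. Epcam itself was highest in libraries 11 and 12 (86.5 and 75.9 CPM). Without it library 11 stayed highest, but library 12 fell below libraries 8 and 10 and below the knockout median of 79.8 CPM. Wnt7b was instead highest in library 9 (3.26 CPM), the knockout lowest in duct markers, and stood at 2.76 CPM in library 11. Rspo3, too, was highest in library 9 (3.51 CPM), and it was lowest of the knockouts in library 12 (2.67 CPM). The part of duct epithelium cells in the rise of Wnt9b and Wnt7b was not tested. Wnt10b, named after its values were seen, was highest in the same 2 libraries as Wnt9b (1.85 CPM in 11 and 1.49 in 12, with the other 8 libraries at 0.353 to 0.987). It did not pass (log2 fold change 0.85, SE 0.393, edgeR adjusted p = 0.169). The plot of members beside marker sums shows these libraries.

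**Figure D4:**
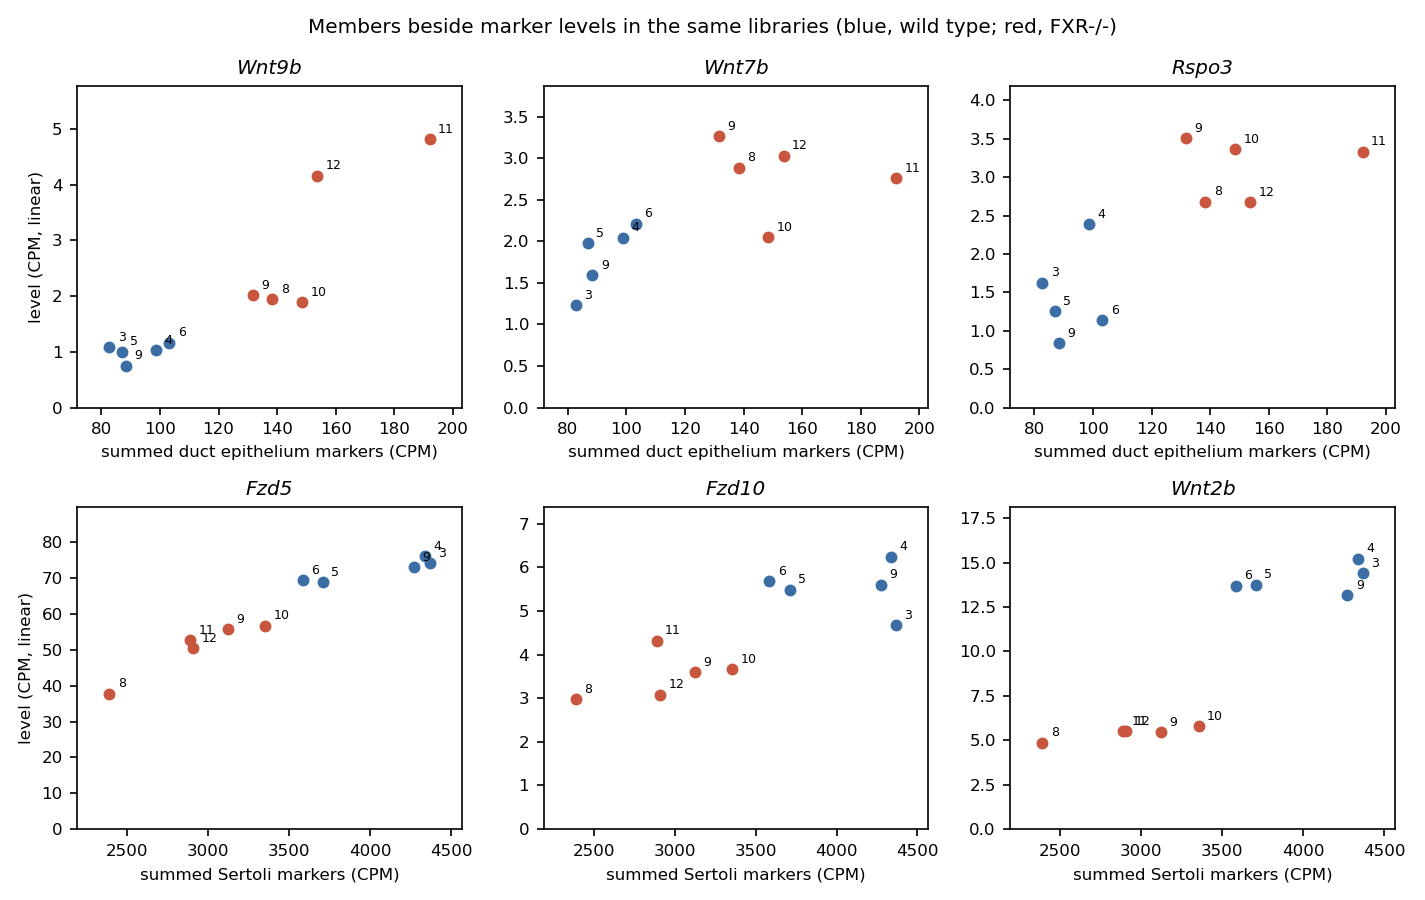
Level of 6 called members (CPM, linear) against the summed level of the duct epithelium markers (top row) or the Sertoli markers (bottom row) in the same library; blue points are wild type, red points knockout, and numbers are library numbers. Knockout libraries 11 and 12 are highest in Wnt9b and in summed duct markers, library 12 in the latter only with Epcam included. Wnt7b and Rspo3 are highest in knockout library 9. Among the knockouts, library 9 is lowest in duct markers. Library 8 is lowest and library 10 highest of the knockouts in Fzd5, in Wnt2b (4.86 and 5.80 CPM) and in summed Sertoli markers. Without Clu, library 12 is the lowest knockout in that sum and library 10 stays highest. Fzd10 is also lowest in library 8 but highest of the knockouts in library 11.

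Several WNT ligand genes are next to each other in the genome, and such pairs were set side by side. Wnt3 (ENSMUSG00000000125, chromosome 11, 103774150 to 103817957, plus strand) lies 24.3 kb from Wnt9b with no gene of the table between them. It was the one member whose genotypes did not overlap without a call, at 1.90, 1.99, 2.32, 2.24 and 2.35 CPM in wild-type libraries 3, 4, 5, 6 and 9 and 3.60, 2.47, 2.66, 2.42 and 2.52 CPM in knockout libraries 8 to 12. All 5 knockout values were above the wild-type ones, with library 8 far above the rest (log2 fold change 0.34, SE 0.135, edgeR adjusted p = 0.115). Wnt6 and Wnt10a, 6.2 kb apart, had log2 fold changes of -0.23 and 0.38, and Wnt3a and Wnt9a, 16.2 kb apart, of 0.24 and 0.15, none of them called. Wnt10b and Wnt1 are 11.7 kb apart, and Wnt1 was too low to test.

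The most abundant ligand genes did not pass. Wnt6 ranged from 107 to 155 CPM in wild type and from 95.2 to 125 CPM in knockout (log2 fold change -0.23, SE 0.105, edgeR adjusted p = 0.167). Wnt5a, the main ligand of the non-canonical branch, ranged from 80.2 to 100.1 CPM and from 74.2 to 102 CPM (-0.06, SE 0.0867, edgeR adjusted p = 0.715), with knockout library 8 highest. Its relative Wnt5b ranged from 14.7 to 16.7 CPM and from 12.7 to 15.2 CPM (-0.22, SE 0.0670, edgeR adjusted p = 0.0519), just above the threshold. Wnt4, the ovarian-pathway ligand, stood at 5.87 ± 1.06 and 7.97 ± 1.37 CPM (SD, n = 5 each; 0.44, SE 0.147, edgeR adjusted p = 0.0665). The genotypes overlapped in all 4. Wls encodes the carrier that brings WNT proteins to the cell surface, and its 2 means were 77.5 ± 14.6 (wild type) and 78.4 ± 5.50 CPM (knockout; edgeR adjusted p = 0.942, errors are SD, n = 5 each).

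Among 12 receptor genes, all tested, Fzd5 and Fzd10 fell and 10 did not pass, with 8 fitted below 0 and a median log2 fold change of -0.09. Fzd5 (ENSMUSG00000045005, chromosome 1, 64730558 to 64737751, minus strand) encodes a frizzled receptor of WNT ligands. Wild-type libraries 3, 4, 5, 6 and 9 stood at 74.1, 76.1, 68.8, 69.5 and 73.1 CPM, and knockout libraries 8 to 12 at 37.8, 55.8, 56.7, 52.7 and 50.5 CPM. The genotypes did not overlap, and knockout library 8 lay below the other knockouts. The mean fell from 72.3 ± 3.08 to 50.7 ± 7.62 CPM (SD, n = 5 each; 1.43-fold, log2 fold change -0.51, SE 0.0918, edgeR adjusted p = 0.00500), and without library 8 the log2 fold change was -0.42. A predicted gene (Gm38058) lies on the other strand over 17.8% of the Fzd5 exons, and since the use of strand in counting is not known, its reads cannot be told apart from those of Fzd5.

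Fzd10 (ENSMUSG00000081683, chromosome 5, 128600844 to 128604093, plus strand) encodes another frizzled receptor. Its level was 4.67, 6.24, 5.48, 5.68 and 5.60 CPM in wild-type libraries 3, 4, 5, 6 and 9 and 2.98, 3.59, 3.67, 4.32 and 3.08 CPM in knockout libraries 8 to 12. All knockout values were below all wild-type values, with a narrow gap between knockout library 11 and wild-type library 3. The mean fell from 5.54 ± 0.568 to 3.53 ± 0.538 CPM (SD, n = 5 each; 1.57-fold, log2 fold change -0.65, SE 0.120, edgeR adjusted p = 0.00576).

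**Figure D5:**
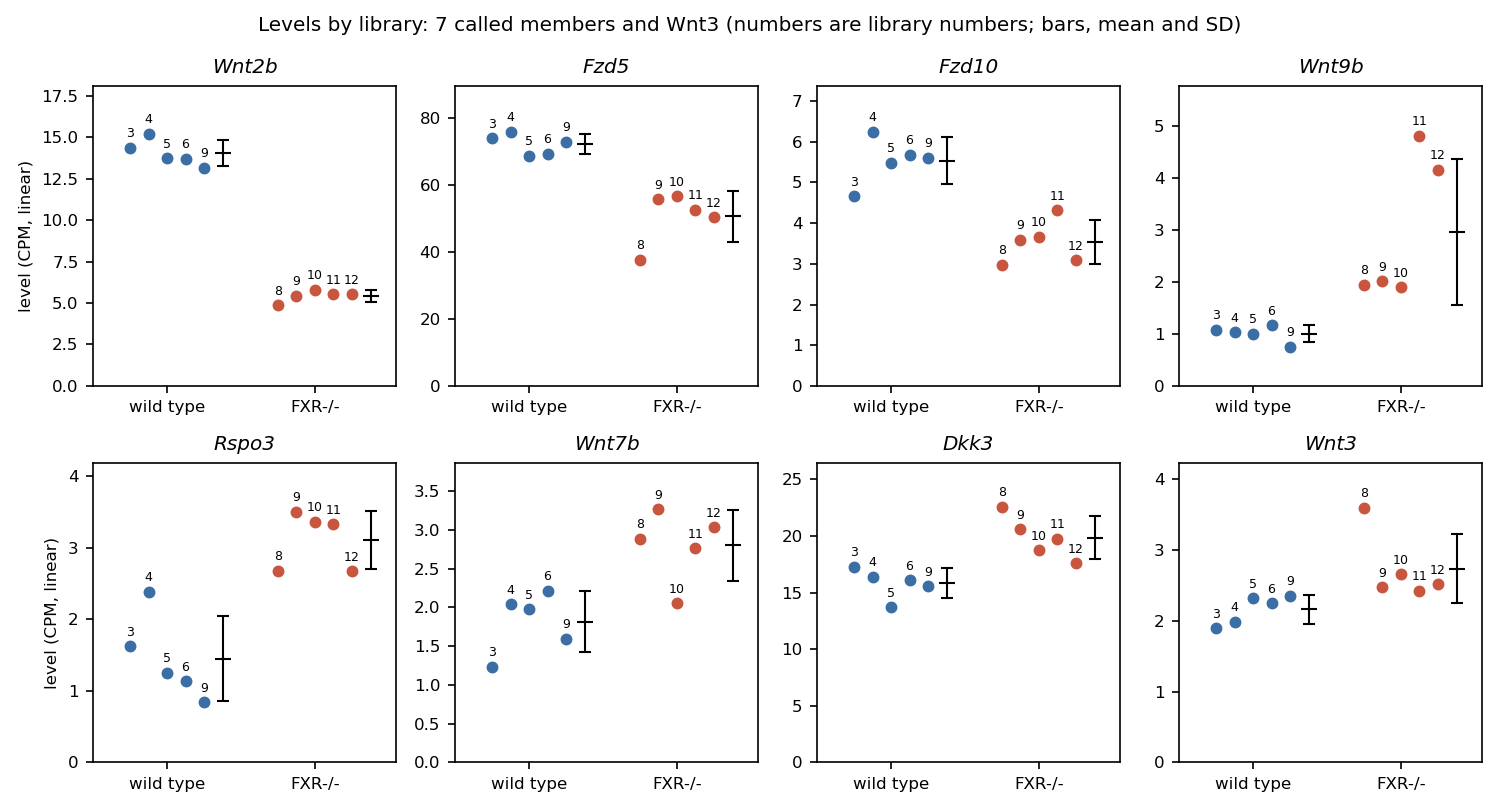
Level in each library (CPM, linear axes from 0) of the 7 called members and of Wnt3, with library numbers beside the points and the mean and SD (n = 5 each) as bars; blue is wild type and red knockout. Wnt2b shows 2 tight groups, Wnt9b is highest in knockout libraries 11 and 12, and Wnt7b overlaps through knockout library 10.

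Sertoli markers differed as well, with 4 of 10 called lower and 6 not called. Their sum was 2389 CPM in knockout library 8, 2889 in 11, 2908 in 12, 3124 in 9 and 3354 in 10. Among the knockouts, both Fzd5 and Wnt2b were lowest in library 8 and highest in library 10. Fzd10 was also lowest in library 8 (2.98 CPM) but highest in library 11 (4.32 CPM, against 3.67 CPM in library 10). Clu made up 58.1% of the sum, and without it the ranges were 1484 to 1833 CPM in wild type against 1233 to 1511 CPM in knockout. The genotypes then overlapped. Clu itself was lowest in library 8 (1091 CPM). Without it library 12 was the lowest knockout and library 8 the median one (1298 CPM), while library 10 stayed highest. The part of this marker difference in the falls of Wnt2b, Fzd5 and Fzd10 was not tested.

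None of the other 10 receptor genes passed. The co-receptor gene Lrp6, the most abundant receptor gene per kilobase in wild type, stood at 170.4 ± 6.57 and 166 ± 6.09 CPM (SD, n = 5 each; log2 fold change -0.04, SE 0.0400, edgeR adjusted p = 0.579), and its partner Lrp5 at 56.2 ± 5.51 and 57.5 ± 2.78 CPM. Fzd2 stood at 31.7 ± 1.54 and 30.5 ± 3.99 CPM (-0.06, edgeR adjusted p = 0.686). The remaining 7 frizzled genes had log2 fold changes from -0.28 (Fzd3, edgeR adjusted p = 0.0552) to 0.28 (Fzd4, edgeR adjusted p = 0.162). The highest Fzd4 values, 17.8 and 15.7 CPM, were those of knockout libraries 9 and 10, the libraries richest in adipocyte markers, while the other 8 libraries held 10.3 to 12.5 CPM. The part of adipocytes in these values was not tested.

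R-spondins strengthen WNT signals by binding LGR receptors and removing the ubiquitin ligases that clear frizzled receptors from the surface. Of 6 such genes, Rspo3 rose and 5 did not pass. Rspo3 (ENSMUSG00000019880, chromosome 10, 29452416 to 29535867, minus strand) stood at 1.63, 2.39, 1.25, 1.14 and 0.844 CPM in wild-type libraries 3, 4, 5, 6 and 9 and at 2.68, 3.51, 3.37, 3.33 and 2.67 CPM in knockout libraries 8 to 12. The genotypes did not overlap, and wild-type library 4 came closest to the knockouts. The mean rose from 1.45 ± 0.595 to 3.11 ± 0.403 CPM (SD, n = 5 each; 2.14-fold, log2 fold change 1.10, SE 0.229, edgeR adjusted p = 0.00966) on 28 to 133 counts per library. An antisense gene, Gm48159, overlaps 13.1% of its exons. Wild-type library 4 also had the highest wild-type sums of adipocyte markers (126 CPM) and mesothelium markers (38.2 CPM), and what these cells add to Rspo3 was not tested. The call held without knockout libraries 9 and 10, the highest in adipocyte markers (log2 fold change 0.99, edgeR adjusted p = 0.0422).

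The other 3 R-spondin genes and both receptors did not pass. Rspo1, the ovarian-pathway signal, stood at 9.72 ± 1.20 and 11.3 ± 1.62 CPM (SD, n = 5 each; log2 fold change 0.21, SE 0.115, edgeR adjusted p = 0.242), and Rspo4 at 10.3 ± 1.48 and 11.3 ± 1.73 CPM (0.14, edgeR adjusted p = 0.486). Lgr4, by far the more abundant receptor, ranged from 93.7 to 110.1 CPM in wild type and from 96.0 to 108 CPM in knockout (0.03, SE 0.0544, edgeR adjusted p = 0.794). Lgr5, a receptor that is also a target gene of the pathway, stood at 2.88 ± 0.264 and 3.03 ± 0.225 CPM (0.07, SE 0.103, edgeR adjusted p = 0.681). Rspo2 did not pass either (-0.06, edgeR adjusted p = 0.695).

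Of 10 genes for secreted antagonists, Dkk3 rose, 7 did not pass and 2 were not tested. SFRP, FRZB and WIF1 proteins bind WNT ligands, and DKK1, DKK2 and DKK4 bind LRP co-receptors, whereas DKK3 is a divergent member that is not a clear LRP antagonist. Dkk3 (ENSMUSG00000030772, chromosome 7, 112116017 to 112159057, minus strand) stood at 17.3, 16.4, 13.7, 16.1 and 15.6 CPM in wild-type libraries 3, 4, 5, 6 and 9 and at 22.6, 20.6, 18.8, 19.8 and 17.6 CPM in knockout libraries 8 to 12. The genotypes did not overlap, but the lowest knockout and the highest wild-type value were close. The mean rose from 15.8 ± 1.33 to 19.9 ± 1.90 CPM (SD, n = 5 each; 1.25-fold, log2 fold change 0.33, SE 0.0811, edgeR adjusted p = 0.0218). Without knockout libraries 9 and 10 together the log2 fold change was 0.33 and the call was lost (edgeR adjusted p = 0.0534).

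Sfrp1, the most abundant antagonist gene, ranged from 90.7 to 132 CPM in wild type and from 106 to 144 CPM in knockout (log2 fold change 0.18, SE 0.103, edgeR adjusted p = 0.253), and Sfrp2 stood at 18.7 ± 3.47 and 18.0 ± 3.34 CPM (SD, n = 5 each; -0.05, edgeR adjusted p = 0.836). A pair of antagonist genes with larger fitted values missed the threshold and are named after their values were seen. Frzb, at 10.6 ± 3.60 and 6.13 ± 2.28 CPM (SD, n = 5 each), had a log2 fold change of -0.79 with an SE of 0.291 (edgeR adjusted p = 0.0932), wild-type library 9 being high (16.7 CPM) and knockout library 8 low (2.33 CPM). Sfrp4, at 7.61 ± 1.18 and 5.08 ± 1.46 CPM (SD, n = 5 each), had one of -0.58 with an SE of 0.181 (edgeR adjusted p = 0.0518). Sfrp5, Dkk2 and Wif1 did not pass (log2 fold changes of -0.37, -0.17 and -0.0040).

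Inside the cell, none of the 7 genes for AXIN proteins, β-catenin and TCF/LEF factors passed, where 13.9% of all genes did. Ctnnb1 ranged from 958 to 1044 CPM in wild type and from 878 to 979 CPM in knockout (log2 fold change -0.12, SE 0.0415, edgeR adjusted p = 0.0765), and 14.6% of its exons are shared with Ulk4 on the other strand. Tcf7 ranged from 103 to 111 CPM and from 101 to 135 CPM (0.09, edgeR adjusted p = 0.391), with knockout library 8 highest. Axin1 stood at 149.6 ± 7.11 and 144.6 ± 4.81 CPM (-0.05, edgeR adjusted p = 0.479; SD, n = 5 each). Axin2 and Lef1 are both parts and targets of the canonical pathway. Axin2 stood at 41.7 ± 2.94 and 44.2 ± 4.02 CPM (SD, n = 5 each; 0.09, SE 0.0697, edgeR adjusted p = 0.447) and Lef1 at 6.27 ± 0.589 and 7.29 ± 0.674 CPM (SD, n = 5 each; 0.22, SE 0.0948, edgeR adjusted p = 0.145). Tcf7l1 and Tcf7l2 had log2 fold changes of 0.07 and -0.09.

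The other genes of the pathway, from 5 lists, numbered 75, all tested, of which 5 rose and 8 fell. That is 17.3%, against 13.9% of all tested genes, with a median log2 fold change of -0.03. Of 21 genes of WNT secretion and the cell surface, Gpc3 rose and Ryk and Gpc4 fell. Ryk, which encodes a WNT co-receptor, fell from 143 ± 3.90 to 130.6 ± 3.33 CPM (edgeR adjusted p = 0.0293; errors are SD, n = 5 each). The glypican genes Gpc3 and Gpc4, whose products bind WNT proteins at the surface, went from 92.0 to 112 CPM and from 75.0 to 59.8 CPM on average (log2 fold changes 0.28 and -0.33, edgeR adjusted p = 0.0440 and 0.0374).

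Of 17 genes of the dishevelled and destruction complex list, 2 rose, 4 fell and 11 did not pass. Fbxw11, which encodes an F-box protein that marks β-catenin for degradation, fell from 153 ± 4.45 to 130.5 ± 5.03 CPM (SD, n = 5 each; log2 fold change -0.23, SE 0.0383, edgeR adjusted p = 0.00364). Tnks, which encodes an enzyme that destabilises AXIN, fell from 119.6 ± 4.97 to 104 ± 5.67 CPM (SD, n = 5 each; log2 fold change -0.20, edgeR adjusted p = 0.0157), and Gsk3b and Amer1, named to complete the count, fell by 0.16 and 0.21 on the log2 scale. Nkd1 and Nkd2, whose products bind dishevelled and dampen the signal, rose from 25.2 ± 2.07 to 30.0 ± 1.86 CPM and from 17.5 ± 0.469 to 20.4 ± 1.34 CPM (edgeR adjusted p = 0.0288 and 0.0250; errors are SD, n = 5 each). Among 14 nuclear cofactors Chd8, a repressor of β-catenin targets, fell slightly (-0.13, edgeR adjusted p = 0.0331), and among 12 planar cell polarity genes Prickle1 fell from 56.2 ± 7.42 to 44.2 ± 2.96 CPM (edgeR adjusted p = 0.0182; errors are SD, n = 5 each).

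In the list of 16 feedback and target genes, Nkd1, Sp5 and Cd44 rose, none fell and 13 did not pass. Of all tested genes, 13.9% were called. The median log2 fold change of the list was 0.19, against 0.01 for all genes. Znrf3 did not pass (-0.10, edgeR adjusted p = 0.0709), but its knockout values (61.5 to 65.6 CPM) lay below its wild-type values (66.3 to 69.5 CPM). Sp5, a transcription factor gene induced by β-catenin, stood at 1.78, 2.50, 1.41, 2.60 and 1.99 CPM in wild-type libraries 3, 4, 5, 6 and 9 and at 2.89, 2.66, 3.09, 3.88 and 4.03 CPM in knockout libraries 8 to 12. The genotypes did not overlap, with knockout libraries 11 and 12 highest (log2 fold change 0.69, SE 0.182, edgeR adjusted p = 0.0287). Libraries 11 and 12 were also highest in summed duct markers, library 12 only with Epcam included. Cd44, a cell surface receptor gene that is also high in epithelia and leukocytes, went from 7.25 ± 1.25 to 9.96 ± 1.20 CPM (SD, n = 5 each; log2 fold change 0.46, edgeR adjusted p = 0.0335). Leaving out 1 library ended the call of Nkd1 for wild-type 3, 5 or 9 and knockout 8 or 11 (edgeR adjusted p up to 0.0699), of Sp5 for wild-type 3, 5 or 9 and knockout 11 or 12 (up to 0.0729), and of Cd44 for wild-type 4, 6 or 9 and knockout 8, 9 or 10 (up to 0.0739). Among the other named genes of the 5 lists, Fbxw11, Tnks and Prickle1 kept their calls in all 19 alternatives. Single left-out libraries ended the calls of Nkd2 (wild-type 4 or 9, knockout 11), Ryk (wild-type 4, 5, 6 or 9, knockout 9 or 11), Gpc3 (wild-type 4, 5, 6 or 9, knockout 8, 10, 11 or 12), Gpc4 (wild-type 4 or 9, knockout 8, 9, 11 or 12) and Chd8 (every library but knockout 10). With single libraries left out, log2 fold changes ran from 0.19 to 0.25 for Nkd2, -0.15 to -0.12 for Ryk, 0.23 to 0.33 for Gpc3, -0.38 to -0.24 for Gpc4 and -0.15 to -0.11 for Chd8. Calls also ended without knockout libraries 9 and 10 together for Nkd1, Cd44, Ryk and Gpc4 (edgeR adjusted p = 0.0639, 0.112, 0.0576 and 0.05002). Scaling by library totals ended those of Ryk, Gpc4 and Chd8 (edgeR adjusted p = 0.0897, 0.0505 and 0.0752), upper-quartile scaling that of Chd8 (0.0511), and the absence of a count filter those of Ryk and Chd8 (0.0714 and 0.0820). For Gsk3b and Amer1 the alternatives were not tallied.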

How the data were processed

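Total RNA from the testes of individual mice was made into libraries with the Illumina TruSeq RNA kit, per the labels' protocols. The submitters' processing notes name FastQC 0.10.1, CASAVA, Bowtie, Bowtie2 2.1.0, TopHat2 2.0.10 and mm10. Which program counted reads, with what annotation and strand setting, was not given in the sources used here. Used were the authors' deposited raw read counts per gene, without normalization.

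Genes were filtered with filterByExpr, scaled by TMM and tested with the quasi-likelihood F-test of edgeR 4.0.16 over all 10 libraries, with Benjamini-Hochberg adjustment over 18559 genes and a call at 0.05. Levels are CPM of the scaled library size, and per kilobase use GENCODE M21 exon lengths, to which all 55 members matched by Ensembl identifier. SE is that of the log2 fold change. Named were all called or non-overlapping members, the 3 most abundant per kilobase of each role, and at most 4 called genes of each other list. Members, lists and markers were chosen with earlier results of these data known. Alternatives were other scalings, DESeq2 1.42.0, limma-voom (limma 3.58.1), other filters and left-out libraries. Scripts were tested on simulated data. The RefSeq promoter set used held windows for 37 members.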

Additional observations from a re-analysis of the deposited data

Results flagged for a closer look

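Of 100 groups of 5 libraries (the 50 tested members in each genotype), 3 held 1 library far from the others by Dixon's criterion (0.710), where chance gives about 1 in 20. Wnt5a was 102 CPM in knockout library 8 and 74.2 to 82.1 CPM in the other knockouts. Wnt3 was 3.60 CPM in knockout library 8 and 2.42 to 2.66 CPM in the other knockouts. Wnt8b was 0.181 CPM in wild-type library 9 and 0.299 to 0.345 CPM in the other wild types.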

How the results depend on the processing

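Wnt2b, Fzd5, Fzd10, Wnt9b and Rspo3 kept their calls in all 19 alternatives, and none of the 7 called members changed direction. DESeq2 called 13 members, 5 higher (adding Wnt4) and 8 lower (adding Ctnnb1, Fzd3, Fzd7, Sfrp4 and Wnt5b), beside 17% of all genes it tested, and limma-voom called 5 members lower (adding Sfrp4 and Wnt5b). With each library left out in turn, 1427 to 2867 genes were called (1601 without wild-type 4, 1427 without knockout 11 and 1635 without knockout 12). Then 6 to 10 members were called, 3 to 4 higher and 3 to 6 lower, with 6 lower without knockout 10 (adding Ctnnb1, Fzd7 and Sfrp4). The log2 fold changes of 8 uncalled members changed sign in some alternative, none with a call. With single libraries left out they ran from -0.28 to 0.020 for Dkk2, -0.015 to 0.073 for Lrp5, -0.17 to 0.037 for Sfrp2, -0.11 to 0.095 for Wif1, -0.042 to 0.13 for Wls, -0.0032 to 0.45 for Wnt3a and -0.14 to 0.00040 for Wnt5a. Lgr4 was at -0.015 without knockout 9 and 10 together, and Wif1 at 0.013 with upper-quartile scaling, 0.034 with library totals, 0.0019 with no filter and 0.0036 with a mean of at least 1 CPM. The causes were not tested. No paired analysis was possible because the genotypes share only 1 library number. Among the called members counts were lowest in Wnt9b, Rspo3 and Wnt7b, and 5 members could not be tested.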
